A study of Mus musculus with 8 samples.

Results

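A set of 10 interferon-gamma (IFN-γ)-inducible GTPase genes were followed across blood monocyte (MC) subsets of control and diabetic mice. The members were taken by symbol, 5 guanylate-binding protein genes (Gbp2, Gbp3, Gbp5, Gbp7 and Gbp9) and 5 immunity-related GTPase genes (Irgm1, Irgm2, Igtp, Ifi47 and Iigp1), and all 10 of 10 were found among the 16486 genes of the expression table. The 8 libraries held RNA of CD11b+Ly6G- blood MCs of male mice aged 20 to 22 weeks, sorted by their level of the surface protein Ly6C into Ly6C-high and Ly6C-low MCs. Control (CT) mice were C57/BL6. The T1DM mice were C57/BL6 given streptozotocin, a toxin of pancreatic beta cells, in 5 daily doses of 50 mg/kg when 8 weeks old. The T2DM mice were db/db mice, which are homozygous for a mutated leptin receptor and become obese, and their strain background was not given in the sources used here, so that strain and diabetes cannot be told apart for this group. RNA of 5 mice was pooled in each group, with 2 libraries for each CT subset and 1 library for each subset of T1DM and of T2DM.

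IFN-γ is made mainly by NK cells and T cells. It binds the receptor chains encoded by Ifngr1 and Ifngr2, and its signal reaches target promoters at the gamma-activated site (GAS), while the induced factor IRF1 binds the interferon-stimulated response element (ISRE), through which type I interferons act as well. Guanylate-binding proteins (GBPs) and immunity-related GTPases (IRGs) are among the strongest targets of this pathway. They are enzymes of cell-autonomous defence that coat the vacuoles of intracellular pathogens, break them and expose their content. The IRGM proteins (Irgm1, Irgm2 and Igtp, also called Irgm3) sit on the cell's own membranes and keep the effector IRGs (Ifi47 and Iigp1 among them) inactive there.

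The members lie in clusters of related genes. In the GENCODE annotation of GRCm38, Gbp5 (chr3:142493978-142522344), Gbp7 (chr3:142530342-142550149), Gbp3 (chr3:142560026-142573209) and Gbp2 (chr3:142620602-142638008) follow each other on the plus strand of chromosome 3. Gbp9 lies at chr5:105077630-105139539 on the minus strand and overlaps Gbp8 and Gbp4. On chromosome 11, Irgm1 (chr11:48861968-48871683, minus strand) and Ifi47 (chr11:49076587-49096974, plus strand) stand apart from Igtp (chr11:58199556-58207591) and Irgm2 (chr11:58199618-58222782), whose annotated spans overlap on the plus strand.

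The promoters of these genes carry the letters of the elements through which interferons act, and the stretches that hold them are shown for that reason. Of the 10 members, 8 had a promoter in the RefSeq table (GRCm38.p6), and Gbp9 and Iigp1 had none there. The 250 bases before each annotated start were searched for the letters GAAANNGAAA (ISRE) on both strands and TTCNNNGAA (GAS), which reads the same on both strands. The 8 members had 9 windows in the table, since Gbp3 had 2. The ISRE letters were present in 7 of these 9 windows against 2.98% of all 32851 promoter windows, the GAS letters in 4 of 9 against 7.02%, and both together in 4 of 9 against 0.332%. Ifi47 had neither in this window. A match is a description of the letters, not a measurement of binding. Each stretch is printed on the gene's strand, 5′ to 3′, with the matched letters in capitals.
Igtp (chr11:58199505-58199537, plus strand): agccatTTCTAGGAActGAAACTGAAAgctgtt
Irgm2 (chr11:58214896-58214928, plus strand): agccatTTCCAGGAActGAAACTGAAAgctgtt
Irgm1 (chr11:48871429-48871456, minus strand): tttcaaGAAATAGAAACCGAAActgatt
Gbp2 (chr3:142620598-142620619, plus strand): ttttagTTTCACTTTCactgtc
Gbp3 (chr3:142559993-142560020, plus strand): acacagTTTCAGTTTCTATTTCccagat
Gbp7 (chr3:142530224-142530298, plus strand): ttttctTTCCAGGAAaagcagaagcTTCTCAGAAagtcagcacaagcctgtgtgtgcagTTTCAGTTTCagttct
Gbp5 (chr3:142496684-142496896, plus strand): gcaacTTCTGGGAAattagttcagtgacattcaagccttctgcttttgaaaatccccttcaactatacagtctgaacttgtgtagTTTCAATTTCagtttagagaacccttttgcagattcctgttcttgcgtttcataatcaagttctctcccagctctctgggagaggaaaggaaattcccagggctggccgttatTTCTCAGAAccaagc

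The stretches of Igtp and Irgm2 each hold a GAS match followed closely by an ISRE match, and over their 33 bases they differ by a single substitution, T10C, counted from 1 at the 5′ end of the printed stretch with the Igtp base first. GENCODE annotates all 28 bases of the Irgm1 stretch and 18 of the 22 bases of the Gbp2 stretch as exonic, and none of the other stretches. In Irgm1 and in Gbp3, 2 ISRE matches overlap, and neither gene has GAS letters in the window. In Gbp5 and Gbp7, 2 GAS matches and 1 ISRE match stand farther apart. The GBP promoters hold the ISRE on the strand opposite to the gene and the IRGM promoters on the gene's own strand, as the map of matches along the promoters shows.

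**Figure D1:**
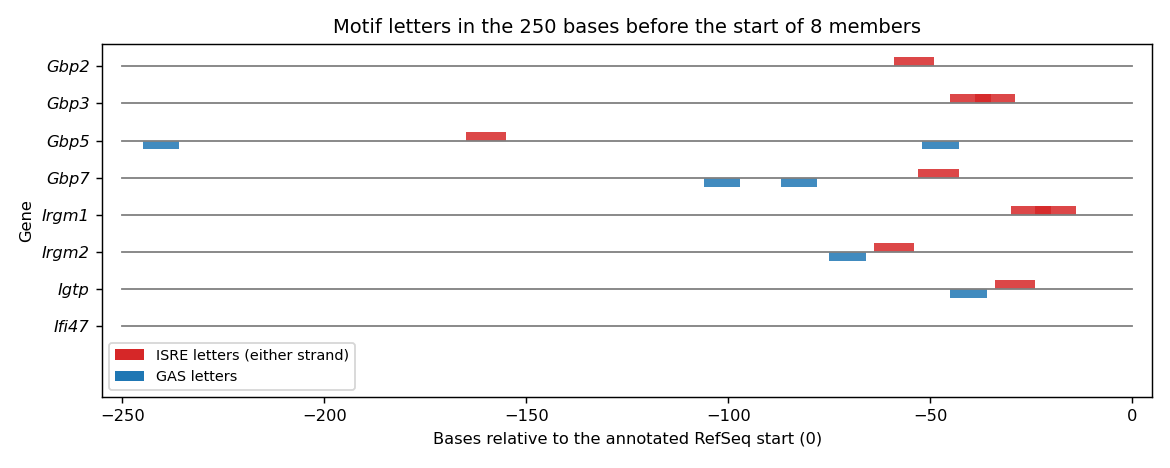
Positions of ISRE letters (red) and GAS letters (blue) in the 250 bases before the annotated RefSeq start of 8 members, with the distance to the start in bases on the horizontal axis. Of these genes, 7 carry ISRE letters, Gbp5, Gbp7, Irgm2 and Igtp also carry GAS letters, and Ifi47 carries neither.

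The values are log2 expression values normalized by the authors. The study's methods name gene counts and length-scaled TPM values but do not say which of them the table holds, so levels are compared between libraries of a gene and not between genes. No read depth can be read from the table, and no count-based error is given. Of 8 markers of Ly6C-high MCs, 6 were called higher in Ly6C-high than in Ly6C-low MCs of CT mice against 2.1% of all genes (limits as given with the tests). Of 10 markers of Ly6C-low MCs, 4 were called lower in Ly6C-high MCs, against 1.43% of all genes, and 3 had higher values there. All 8 pan-monocyte markers were higher in CT Ly6C-high MCs, 4 of them called. Their summed linear levels were 37275 and 37829, against 8277 and 8236 in CT Ly6C-low MCs. What this means for the members' subset differences was not tested. Csf1r and Itgam, with CT log2FCs of 0.80 and 1.00, lay between 9.62 and 10.98 in all 8 libraries. Ly6g was not in the table. All 12 NK cell markers and all 12 B cell markers had lower values in Ly6C-high MCs of CT mice, with 10 and 11 of them past the limits of the test against 1.43% of all genes, so the Ly6C-low libraries also carried lymphocyte transcripts. A NextSeq 500 read the libraries of CT mice and a HiSeq 4000 those of both diabetic models, and in any comparison with CT the sequencer and diabetes cannot be told apart. The 2 CT libraries of a subset correlated across genes with r = 0.968 in both subsets and differed by a median of 0.257 (Ly6C-high) and 0.247 (Ly6C-low) on the log2 scale. The study's methods describe RNA of 5 mice pooled per group and sequenced in duplicate, with 2 datasets for each group, diabetic ones included. Only 1 library for each diabetic subset was available here. Nothing says that the 2 CT libraries of a subset came from separate pools of mice. The p-values thus measure a spread between libraries that may be wholly technical, and not one between mice. In the fits of subset and mouse group to all 8 libraries, the spread also holds differences of the subset effect between mouse groups. A gene whose subset difference varies between mouse groups therefore has a larger error there.

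Ifi47 encodes a GTPase of the effector IRG class. Its log2 values were 6.86 and 6.75 in CT Ly6C-high MCs, 7.38 in T1DM Ly6C-high MCs and 5.36 in T2DM Ly6C-high MCs. In Ly6C-low MCs they were 5.07 and 5.51 (CT), 5.78 (T1DM) and 3.78 (T2DM). Within each subset the T1DM library was the highest and the T2DM library the lowest, and within each mouse group the Ly6C-high value exceeded the Ly6C-low value. Iigp1, which oligomerises on pathogen vacuoles, had values of 1.81 and 1.15 (CT), 0.99 (T1DM) and 0.89 (T2DM) in Ly6C-high MCs and 1.12 and 1.26 (CT), 1.16 (T1DM) and 1.35 (T2DM) in Ly6C-low MCs. The CT subsets overlapped, and the highest value belonged to 1 CT Ly6C-high library.

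Irgm1, a regulator of the effector IRGs that is also linked to autophagy, read 6.33 and 6.33 (CT), 6.55 (T1DM) and 4.97 (T2DM) in Ly6C-high MCs. Its Ly6C-low values were 4.81 and 5.02 (CT), 4.87 (T1DM) and 4.44 (T2DM), so that the T2DM Ly6C-high library lay within the range of the Ly6C-low libraries of CT mice. Irgm2, a further regulator, read 6.65 and 6.63 (CT), 6.54 (T1DM) and 5.20 (T2DM) in Ly6C-high MCs and 5.49 and 5.69 (CT), 5.92 (T1DM) and 5.00 (T2DM) in Ly6C-low MCs. Both T2DM libraries of Irgm2 were below all other libraries. Igtp, the third regulator, read 6.26 and 6.05 (CT), 6.08 (T1DM) and 5.15 (T2DM) in Ly6C-high MCs and 5.29 and 5.28 (CT), 5.78 (T1DM) and 4.79 (T2DM) in Ly6C-low MCs. Its T2DM libraries were again the lowest pair of the 8.

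Among the GBPs, Gbp2, which is recruited to pathogen vacuoles, read 5.91 and 6.06 (CT), 5.85 (T1DM) and 4.88 (T2DM) in Ly6C-high MCs and 5.19 and 5.23 (CT), 5.51 (T1DM) and 3.94 (T2DM) in Ly6C-low MCs. Gbp3 read 6.16 and 6.32 (CT), 6.61 (T1DM) and 4.76 (T2DM) in Ly6C-high MCs and 5.72 and 5.50 (CT), 5.75 (T1DM) and 4.34 (T2DM) in Ly6C-low MCs. For both genes the 2 T2DM libraries lay below the other 6. Gbp5, a GBP linked to inflammasome activation, read 5.49 and 5.52 (CT), 5.51 (T1DM) and 4.23 (T2DM) in Ly6C-high MCs and 5.40 and 5.30 (CT), 5.61 (T1DM) and 5.00 (T2DM) in Ly6C-low MCs. Gbp9 read 6.60 and 6.26 (CT), 6.23 (T1DM) and 5.07 (T2DM) in Ly6C-high MCs and 5.75 and 6.04 (CT), 6.21 (T1DM) and 5.46 (T2DM) in Ly6C-low MCs. In Gbp5 and Gbp9 the lowest library was T2DM Ly6C-high, below T2DM Ly6C-low. Gbp7 showed the opposite order within T2DM, where the Ly6C-high library read 5.47 and the Ly6C-low library 4.02, against 5.76 and 5.90 (CT) and 6.16 (T1DM) in Ly6C-high and 5.94 and 6.17 (CT) and 6.05 (T1DM) in Ly6C-low MCs.

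**Figure D2:**
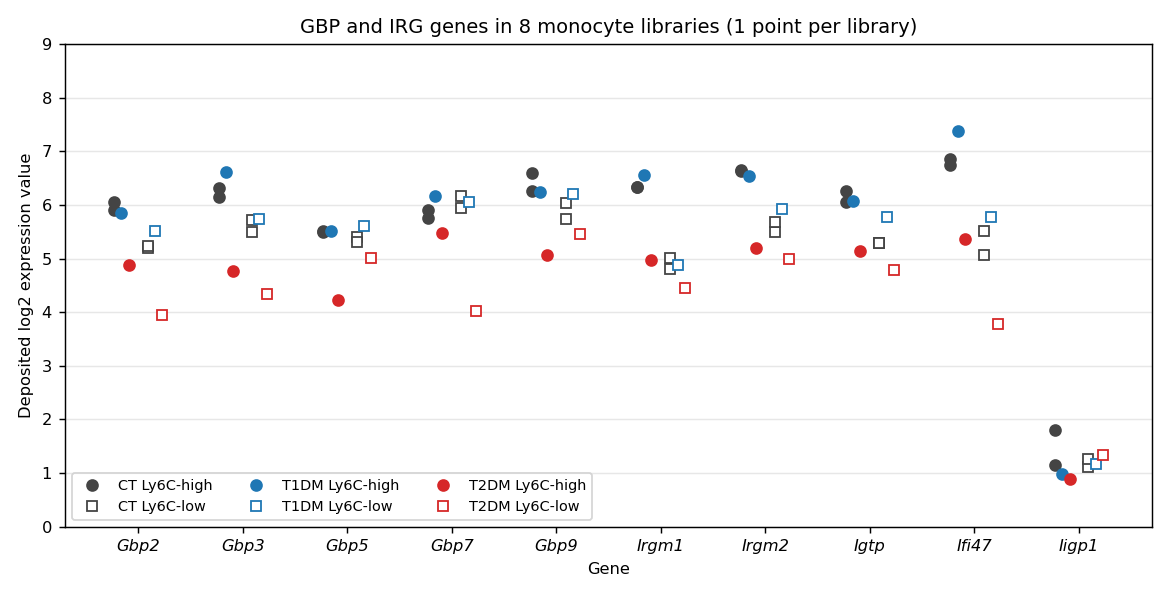
Deposited log2 expression value of the 10 members (horizontal axis) in each of the 8 libraries, with 1 point per library, circles for Ly6C-high and squares for Ly6C-low MCs, grey for CT, blue for T1DM and red for T2DM. In 9 members the T2DM library of a subset lies below the other 3 libraries of that subset, and Iigp1 stays at or below 1.81.

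The mean of the 10 members, each centred on its own mean over the libraries, gave the order of the conditions. It was 0.60 and 0.52 in CT Ly6C-high and 0.61 in T1DM Ly6C-high MCs, neighbours that did not differ beyond the spread of the CT pair. Next came T1DM Ly6C-low (0.09), above the CT Ly6C-low libraries (-0.08 and -0.20), and last T2DM Ly6C-high (-0.58) and T2DM Ly6C-low (-0.97). Both T2DM libraries were thus below every CT and T1DM library. Across the 8 libraries, each member's Pearson correlation with the mean of the others was 0.97 for Irgm2, 0.96 for Gbp2, Gbp3 and Igtp, 0.93 for Ifi47, 0.86 for Irgm1 and Gbp9, 0.68 for Gbp7, 0.65 for Gbp5 and 0.18 for Iigp1. These are descriptions over 8 libraries that share pools and subsets. Some members share transcript sequence with relatives, most of all Gbp9 (18.3% of its 31-base words, with Gbp8 and Gbp6 among the partners), Igtp (15.9%, with Irgm2) and Gbp7 (14.7%, with Gm43802 foremost), so their values may hold reads divided between copies.

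The difference between the subsets was tested first in CT mice, with 2 libraries on each side (limma on the log2 values, Benjamini-Hochberg adjustment over all 16486 genes, called at an adjusted p below 0.01 and an absolute log2 fold change (log2FC) above 1). Irgm1 was higher in Ly6C-high MCs, with a log2FC of 1.42 ± 0.11 (SE) and an adjusted p of 0.0097. It was the only member of 10 past these limits, against 2.1% of all genes in that direction. Ifi47 had the largest log2FC, 1.51 ± 0.19 (adjusted p = 0.0200), followed by Irgm2 with 1.05 ± 0.10 (adjusted p = 0.0136), and neither reached the limit. The remaining IRGM gene, Igtp, had 0.87 (adjusted p = 0.0214), and the leading GBPs had 0.77 (Gbp2, adjusted p = 0.0226) and 0.63 (Gbp3, adjusted p = 0.0506), ahead of Gbp9 with 0.54 (adjusted p = 0.130). Gbp5 (0.15), Gbp7 (-0.22) and Iigp1 (0.29) did not differ between the subsets beyond the error, with unadjusted p from 0.159 to 0.454. The median log2FC of the members was 0.70, against -0.09 for all genes. Without any single CT library of the 4, 0 of the 16486 genes passed, members included, while the log2FC of Irgm1 stayed between 1.31 and 1.52.

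Over the 3 mouse groups, in an additive fit of subset and mouse group to all 8 libraries, 2 of 10 members were higher in Ly6C-high MCs, against 5.37% of all genes. They were Ifi47, with a log2FC of 1.55 ± 0.13 and a limma adjusted p of 3.61e-05, and Irgm1, with 1.26 ± 0.19 and 0.0010. Gbp2 (0.70, adjusted p = 0.0039), Gbp3 (0.64, adjusted p = 0.0042) and Irgm2 (0.73, adjusted p = 0.0070) passed the limit on p but not the limit on size. The 3 Ly6C-high libraries of CT and T1DM lay above the 3 Ly6C-low libraries of CT and T1DM in 7 of 10 members, against 21.4% of all genes. All 4 Ly6C-high libraries lay above all 4 Ly6C-low libraries in 0 of 10, against 16.4% of all genes.

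The size of the subset difference in each mouse group separated the members. For Ifi47 it was nearly constant, with a log2 difference (Ly6C-high minus Ly6C-low) of 1.51 in CT, 1.60 in T1DM and 1.58 in T2DM. For Irgm1 it was 1.42 in CT, 1.68 in T1DM and 0.53 in T2DM, and for Irgm2 1.05, 0.62 and 0.21 in the same order. Gbp7 went the other way, with -0.22 in CT, 0.11 in T1DM and 1.45 in T2DM, while Gbp5 read 0.15, -0.09 and -0.77. Whether the subset difference in T2DM departed from the mean of CT and T1DM was tested with an interaction term. No member passed, and 0.0303% of all genes did. By that term Gbp7 had 1.56 ± 0.27 (limma adjusted p = 0.138), Irgm1 -0.98 (adjusted p = 0.294) and Gbp5 -0.84 (adjusted p = 0.344), and 4 members had an unadjusted p below 0.05, of which 1 was positive (4.19% of all genes) and 3 were negative (5.4% of all genes). T2DM contributed 1 library of each subset to this term.

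**Figure D3:**
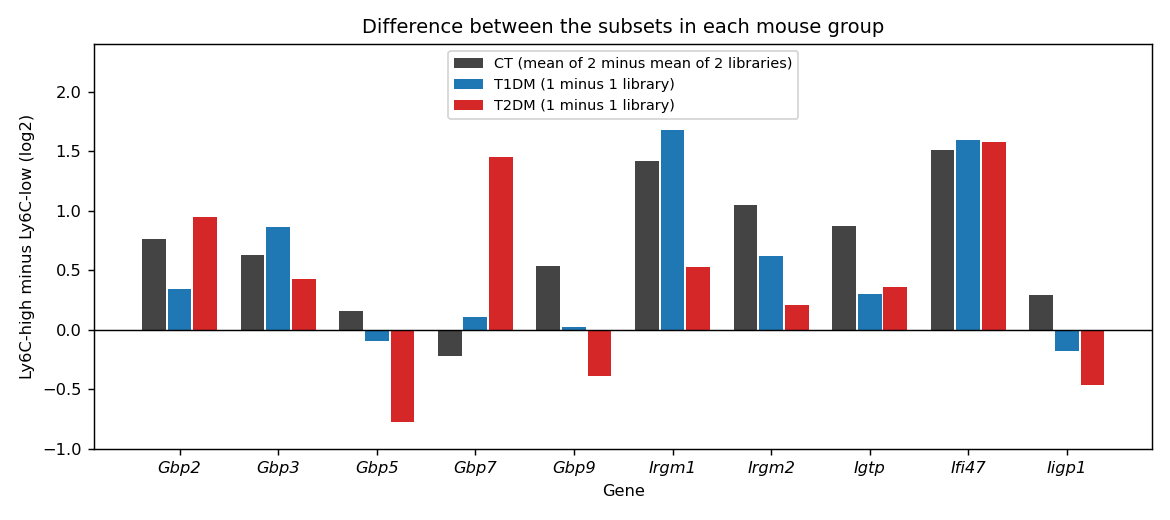
Ly6C-high minus Ly6C-low difference on the log2 scale for each member (horizontal axis) in CT (grey, mean of 2 minus mean of 2 libraries), T1DM (blue, 1 minus 1 library) and T2DM (red, 1 minus 1 library). Ifi47 keeps a difference of 1.51 to 1.60 in the 3 mouse groups, whereas Gbp7 reads 1.45 in T2DM, -0.22 in CT and 0.11 in T1DM.

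The diabetic models were compared with each other in the same additive fit. Each model gave 1 library per subset, both from a pooled group of mice. The p-values therefore do not measure the spread between mice. Ifi47 was lower in T2DM than in T1DM MCs with a log2FC of -2.01 ± 0.18 and a limma adjusted p of 0.00095, and Gbp3 was lower with -1.63 ± 0.17 and 0.0027. These were 2 of 10 members called lower, against 0.388% of all genes. Gbp2 followed with -1.26 ± 0.19 (adjusted p = 0.0139) and Irgm2 with -1.13 (adjusted p = 0.0419), which would pass a limit of 0.05 on the adjusted p, as would 0.995% of all genes in that direction. Gbp7 (-1.36, adjusted p = 0.124), Irgm1 (-1.01, adjusted p = 0.114), Igtp (-0.96, adjusted p = 0.0508), Gbp9 (-0.96, adjusted p = 0.121) and Gbp5 (-0.94, adjusted p = 0.108) did not pass. The SE of Gbp7, whose subset difference varied between mouse groups, was 0.37, against 0.18 for Ifi47. Iigp1 had a log2FC of 0.04. An unadjusted p below 0.05 with a lower level in T2DM was found in 9 of 10 members, against 7.78% of all genes, and the median log2FC was -1.07 for the members and 0.00 for all genes.

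Some or all calls in this comparison were lost without a T1DM library or the T2DM Ly6C-high library, but not without the T2DM Ly6C-low library. Each of these fits leaves 1 library for a model. With single libraries left out, the log2FC of Ifi47 lay between -2.04 and -1.98, and that of Gbp3 between -1.78 and -1.48. Both libraries of each model came from the same sequencer, but the strain of the db/db mice was not given in the sources used here.

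T2DM was also compared with CT. The same 2 of 10 members were lower, Ifi47 with a log2FC of -1.48 ± 0.15 (limma adjusted p = 0.0039) and Gbp3 with -1.37 ± 0.15 (adjusted p = 0.0046), against 0.164% of all genes. This comparison and the previous one share the T2DM libraries, and here too the p-values do not measure the spread between mice. Gbp2 had -1.19 ± 0.16 (adjusted p = 0.0143), Gbp7 -1.20 (adjusted p = 0.188), Irgm2 -1.01 (adjusted p = 0.0562), Irgm1 -0.92, Gbp9 -0.90, Gbp5 -0.81, Igtp -0.75 and Iigp1 -0.22. An unadjusted p below 0.05 was found in 9 of 10, against 4.9% of all genes in that direction, and the median of the members was -0.96. The calls rested on all 8 libraries. Without the first CT Ly6C-low library 1 member passed, and without any other CT library none did. Of all genes, 49 were called with all 8 libraries and 17 to 21 without a CT library. Without a diabetic library, which leaves 1 for that model, the calls were not kept. With single libraries left out, the log2FC ran from -1.56 to -1.38 for Ifi47 and from -1.51 to -1.23 for Gbp3. Over all genes, the 4 diabetic libraries together differed from CT with an SD of 0.272, and T2DM differed from T1DM with an SD of 0.743. What the authors did to bring the sequencers together is not given in the sources used here.

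**Figure D4:**
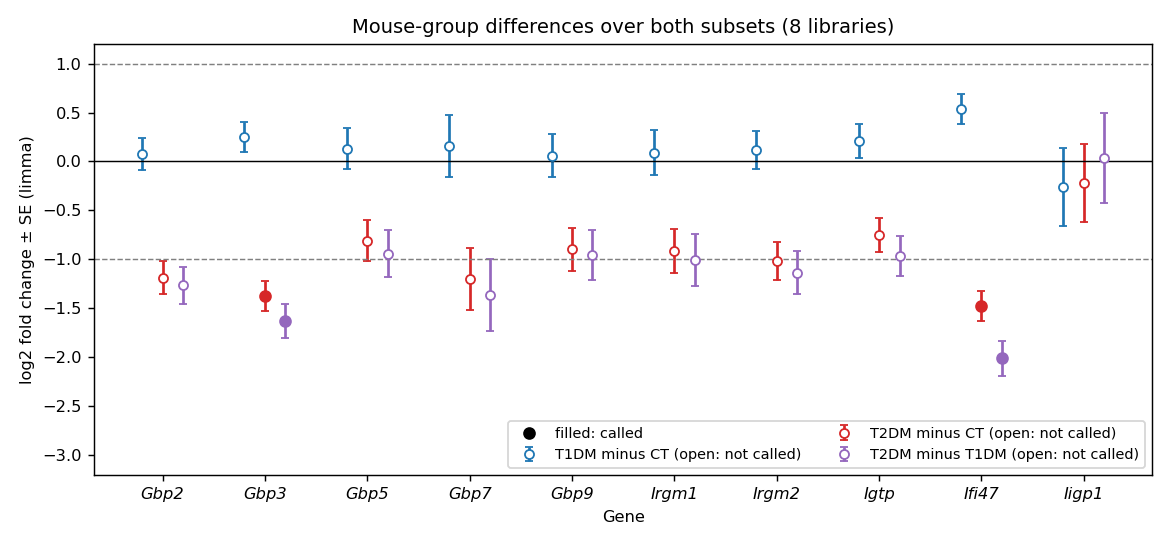
Log2 fold change with its SE (limma, additive fit to 8 libraries) of each member for T1DM minus CT (blue), T2DM minus CT (red) and T2DM minus T1DM (purple), with filled points for calls (adjusted p below 0.01 and absolute log2FC above 1) and dashed lines at a log2FC of 1 and -1. Ifi47 and Gbp3 are called in both comparisons of T2DM, and none is called for T1DM minus CT.

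Between T1DM and CT no member passed, and no gene of the 16486 did (0.0%). At an unadjusted p below 0.05, limma gave 1 member against 2.03% of all genes in that direction, Ifi47, with a log2FC of 0.53 ± 0.15 (unadjusted p = 0.00756, adjusted p = 0.980). The values were positive in 9 of 10 members, with a median of 0.12. In the 2 subsets taken apart, none of the 10 members differed from CT by more than 2-fold in T1DM. Of all genes, 5.11% were more than 2-fold higher and 4.94% lower in Ly6C-high MCs, and 4.03% and 4.78% in Ly6C-low MCs. The medians of the members were -0.03 (Ly6C-high) and 0.27 (Ly6C-low).

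Within a subset, the T2DM library stood alone on its side, so its differences are values without a test. In Ly6C-high MCs, T2DM was more than 2-fold below the CT mean in 8 of 10 members, against 7.89% of all genes. These differences ran from -1.48 (Gbp3) through -1.45 (Ifi47), -1.44 (Irgm2) and -1.36 (Irgm1 and Gbp9) to -1.01 (Igtp), and the exceptions were Iigp1 (-0.59) and Gbp7 (-0.36). In Ly6C-low MCs, 4 of 10 members were more than 2-fold below, against 5.68% of all genes. They were Gbp7 (-2.04), Ifi47 (-1.51), Gbp2 (-1.27) and Gbp3 (-1.27), while Irgm1 (-0.47), Gbp9 (-0.43) and Gbp5 (-0.35) stayed closer to CT. The T2DM library lay below the other 3 libraries of its subset in both subsets in 9 of 10 members, against 9.85% of all genes. Both T2DM libraries lay below all other 6 libraries in 7 of 10 members, against 3.5% of all genes.

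The linear values summed over the members put these differences on one scale. The sum was 704 and 684 in the CT Ly6C-high libraries, 771 for T1DM and 300 for T2DM, or 1.11 and 0.432 times the CT mean. In Ly6C-low MCs it was 395 and 431 (CT), 490 (T1DM) and 225 (T2DM), or 1.19 and 0.546 times the CT mean. The sum was therefore higher in Ly6C-high than in Ly6C-low MCs in each mouse group, and the T2DM sums were the lowest of their subset. A sum weighs each gene by its level on the deposited scale, and single members did not all keep this order. In T2DM, Gbp5 (-0.77), Gbp9 (-0.39) and Iigp1 (-0.46) were lower in Ly6C-high MCs, and the remaining members were higher.

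Further genes of the family were drawn from a list of 19, of which 18 were in the table. None was called in either comparison of T2DM, with median log2FCs of -0.95 against T1DM and -0.99 against CT, and 16 of 18 below 0 in both. In both, 9930111J21Rik2 passed the limit on p but not the limit on size. It had -0.87 against T1DM (limma adjusted p = 0.0041) and -0.80 against CT (limma adjusted p = 0.0046). Tgtp2, an effector IRG, read 5.43 and 5.22 (CT), 5.17 (T1DM) and 1.45 (T2DM) in Ly6C-high MCs and 4.13 and 3.63 (CT), 4.77 (T1DM) and 2.94 (T2DM) in Ly6C-low MCs, with a log2FC against T1DM of -2.78 ± 0.62 and a limma adjusted p of 0.0677. Gvin1, a very large interferon-inducible GTPase, read 9.95 and 10.15 (CT), 9.96 (T1DM) and 8.48 (T2DM) in Ly6C-high MCs and 9.11 and 9.29 (CT), 9.61 (T1DM) and 8.80 (T2DM) in Ly6C-low MCs. By subset over the mouse groups, 1 of 18 was higher in Ly6C-high MCs (Gm5431), against 5.37% of all genes, and 4 of 18 were lower (Gbp2b, Gbp4, Gbp8 and Gbp10), against 6.76% of all genes. Gbp4 read 3.76 and 3.34 in CT Ly6C-high against 5.32 and 4.98 in CT Ly6C-low MCs, the opposite subset order from its relatives Gbp2 and Gbp3, and its T2DM values were 2.07 and 4.15.

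Upstream of the members, the IFN-γ receptor and signalling list (14 of 14 measured) had no call in the comparisons of T2DM, with a median log2FC of -0.19 against T1DM and -0.20 against CT. The receptor chain gene Ifngr1 read 9.22 and 9.25 (CT), 9.11 (T1DM) and 9.38 (T2DM) in Ly6C-high MCs, and Ifngr2 read 7.71, 7.69, 7.77 and 7.78 in the same order. In Ly6C-low MCs, Ifngr1 read 8.40 and 8.38 (CT), 8.81 (T1DM) and 8.14 (T2DM), and Ifngr2 read 6.56 and 6.57 (CT), 6.49 (T1DM) and 6.84 (T2DM). The T2DM library lay above both CT libraries for Ifngr2 in both subsets, and for Ifngr1 above them in Ly6C-high and below them in Ly6C-low MCs. Irf1, an induced transcription factor, had a log2FC of T2DM against T1DM of -0.40 ± 0.15 (limma adjusted p = 0.258). Ifng itself was near the bottom of the scale in Ly6C-high MCs, from -2.25 to -1.94, and read 1.45 and 1.21 (CT), 1.54 (T1DM) and -0.68 (T2DM) in Ly6C-low MCs. Socs1, the feedback inhibitor of the JAK kinases, was low in all libraries, with values from -0.26 to 1.94.

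By subset in CT mice, Ifngr2 was higher in Ly6C-high MCs (log2FC 1.14, limma adjusted p = 0.00519), as Irgm1 was. Ifng had -3.27 (adjusted p = 0.0103) and was called lower in Ly6C-high MCs in the fit to all 8 libraries, with -2.97 ± 0.46 (adjusted p = 0.00122).

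For other targets of interferons the differences varied in size. Of 18 measured genes of a list of other IFN-γ-induced genes, which includes the immunoproteasome, peptide transporters and chemokines, 17 had a log2FC below 0 for T2DM against T1DM, with a median of -0.41 and no call. In the list of type I interferon-stimulated genes, all 16 lay below 0 with a median of -1.64. Of these, only Rsad2 was called lower, against 0.388% of all genes. In that list Oas3, which makes the activator of RNase L, had a log2FC of -2.46 ± 0.36 (limma adjusted p = 0.0132), and Isg15, a ubiquitin-like modifier, had -2.02 ± 0.45 (adjusted p = 0.0656). The summed level of this list in T2DM was 0.220 times the CT mean in Ly6C-high and 0.640 times in Ly6C-low MCs. A list of 15 partners of the GTPases includes autophagy conjugation genes, their GABARAP substrates and inflammasome genes. For T2DM against T1DM it had a median of -0.08 and no call, with values from -0.88 to 0.58.

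Markers of other cells also differed in the T2DM libraries. All 12 NK cell markers had a log2FC below 0 for T2DM against T1DM, with a median of -2.51 and 6 called lower (Ncr1, Klrb1c, Gzma, Gzmb, Nkg7 and Eomes) against 0.388% of all genes, and 4 were called lower against CT, against 0.164% of all genes. Their summed level in Ly6C-high MCs was 95.3 and 92.1 (CT), 130 (T1DM) and 29.5 (T2DM). In Ly6C-low MCs it was 729 and 716 (CT), 1000.5 (T1DM) and 170 (T2DM), so the NK sum was lowest in the T2DM library of each subset, as the sum of the members was. Between subsets the orders were opposite, since the members' sum was higher and the NK sum lower in Ly6C-high MCs. Neutrophil markers (10 of 12 measured) had a median log2FC of 1.45 for T2DM against T1DM, with Mmp8 called higher against 0.2% of all genes, and their sum was 3.32 times the CT mean in T2DM Ly6C-high and 2.02 times in T2DM Ly6C-low MCs. Mmp8 is also on the list of Ly6C-high MC markers, of which all 8 had a log2FC above 0 and 3 (Chil3, Mmp8 and F13a1) were called higher in T2DM than in T1DM. The summed level of that list was 2.54 times the CT mean in T2DM Ly6C-high MCs and 1.30 times in T2DM Ly6C-low MCs, and that of the Ly6C-low MC markers was 0.514 and 1.04 times. The lists of T cell and B cell markers (12 genes each) had medians of -0.22 and -0.50 with no call. Dendritic cell markers (8 of 9 measured) had a median of -1.03 with 6 below 0 and no call. Their sum was 0.533 times the CT mean in T2DM Ly6C-high and 1.30 times in T2DM Ly6C-low MCs. The B cell sum was 0.657 and 1.21 times the CT mean in the same order. The part of these cells and of the MC markers in the members' values was not tested, and in bulk libraries fewer cells of a type and less RNA per cell cannot be told apart.

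**Figure D5:**
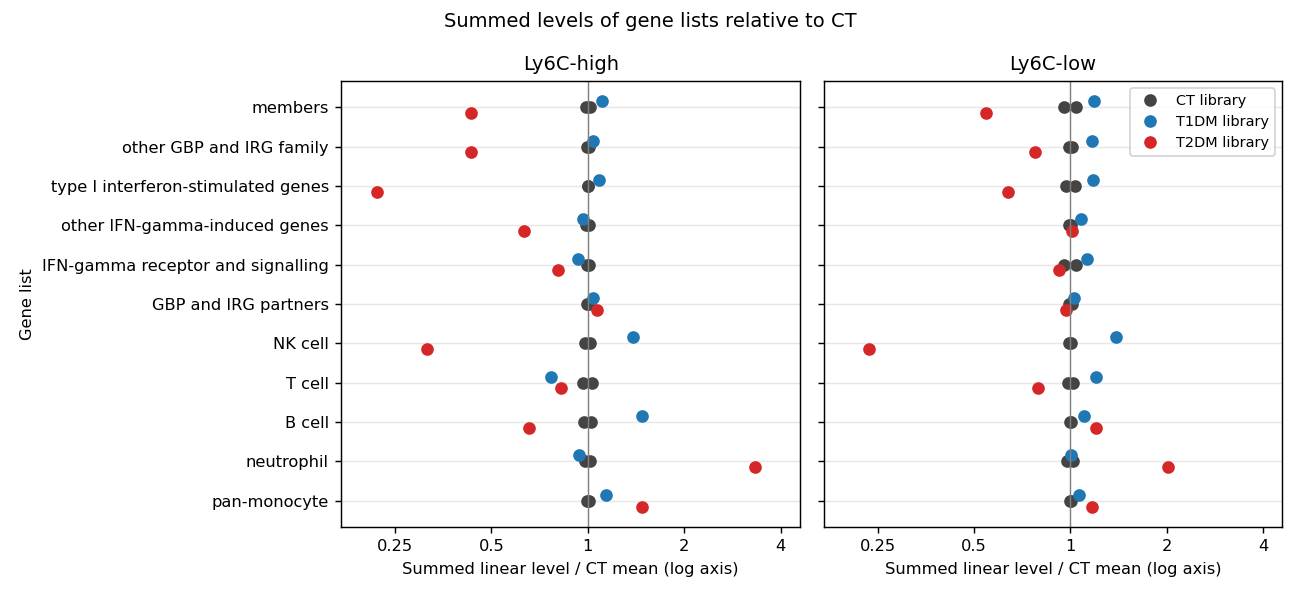
Linear values summed over each gene list (vertical axis) and divided by the mean of the 2 CT libraries of the subset, on a log axis, with 1 point per library for CT (grey), T1DM (blue) and T2DM (red). The T2DM sums of the members are 0.432 (Ly6C-high) and 0.546 (Ly6C-low) times the CT mean, beside 0.315 and 0.236 for NK cell markers and 3.32 and 2.02 for neutrophil markers.

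The genes most like the members were sought among the 5219 others whose log2 values averaged 5 or more, by Pearson correlation over the 8 libraries with the members' centred mean. The 5 highest were Tnks2 (r = 0.98), Parp9 (0.98), Padi2 (0.97), Oas3 (0.97) and 9930111J21Rik2 (0.97). The last of these is on the list of further family genes. Parp9, an ADP-ribosyltransferase, read 6.34 and 6.12 (CT), 6.38 (T1DM) and 5.27 (T2DM) in Ly6C-high MCs and 5.47 and 5.72 (CT), 5.78 (T1DM) and 5.12 (T2DM) in Ly6C-low MCs. The widest range among the 5 was that of Oas3, from 3.78 in T2DM Ly6C-low to 7.68 in T1DM Ly6C-high MCs, and the narrowest was that of Tnks2, from 7.43 to 8.05. No p is attached to these correlations, since the genes were picked for them among 5219.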

How the data were processed

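Bulk RNA-seq of sorted blood MC subsets was analysed in 8 libraries. The authors quantified reads with Kallisto 0.45, used R 3.6.1 with the package tximport (version 1.12.3) to sum them per gene, named mm10 as the build, and deposited a table of normalized log2 values for 16486 genes (from -4.05 to 15.64). Their scaling, filter and offset, and any adjustment between sequencers, are not given in the sources used here. The study's methods give a common read number for the samples, but the depth of each library cannot be read from the table. The deposited log2 values were used as they stand, with no filter.

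Groups were taken from the sample labels. Differences were tested with limma 3.58.1 (lmFit and eBayes with trend, R 4.3.3) with Benjamini-Hochberg adjustment over all genes, and called at an adjusted p below 0.01 and an absolute log2FC above 1. The subsets in CT were fitted with their 4 libraries, and 5 further contrasts with all 8 libraries (subset and mouse group, or with a subset term for T2DM). Differences with 1 library on a side were not tested. The fits were tested on simulated data with independent noise, no pool effects and shifts larger than those of the members. That check does not cover differences of the members' size. Figures and sums were made with Python 3.11.15, pandas 2.3.3 and matplotlib 3.10.9. Summed levels are sums of 2 to the power of the deposited value.

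The members, gene lists and tests were chosen with earlier results of these data known. Named beside the members were Ifng, Ifngr1, Ifngr2, Irf1, Socs1, genes of the other family members' list, genes of a list that passed a test where a result turned on them, and the 5 genes most correlated with the members. A further gene that the rule names is not reported here. Isg15 and Parp9 values, and the list genes given without a call, were picked after their values were seen. Alternatives were eBayes without trend, a filter on a mean log2 of at least 1, log2 of 1 plus the linear value, quantile normalization, a replicate block, an adjusted p limit of 0.05, and leaving out libraries or mouse groups.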

Additional observations from a re-analysis of the deposited data

How the results depend on the processing

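The direction of the calls held under each alternative, but the number of members called did not. For Ly6C-high against Ly6C-low in CT (1 member called), eBayes without trend gave 0, a filter on low values 3 and an adjusted p limit of 0.05 gave 3, and leaving out each library in turn gave 0 to 0. The calls over all genes went with them, from 581 to 0, 1089 and 1936 and, without a library, to 0, so the lost call is not particular to the members. For the subset difference over the mouse groups, 2 members were called under every alternative, each left-out library included, except without the CT libraries, where 0 of all genes were called. For T2DM against T1DM (2 called, with 97 of all genes), eBayes without trend gave 0 (26 of all genes) and an adjusted p limit of 0.05 gave 4 (253). A fit to the 4 diabetic libraries only, chosen after seeing the data, gave 0 with fewer residual degrees of freedom (0 of all genes). Leaving out a CT library gave 2 (57 to 84 of all genes). Some or all calls were lost without a T1DM library or the T2DM Ly6C-high library, but not without the T2DM Ly6C-low library. For T2DM against CT (2 called, with 49 of all genes), eBayes without trend gave 0 (9 of all genes). Leaving out a CT library gave 0 to 1 (17 to 21 of all genes), and the calls were not kept without a diabetic library. A filter on low values and an adjusted p limit of 0.05 each gave 3 (65 and 105 of all genes). T1DM against CT and the interaction stayed at 0 throughout. The interaction could not be estimated without a T2DM library. The low-value filter tests fewer genes, and for the other losses of calls the cause was not tested.

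With a replicate block on the CT library numbers, 0 members were called for the subsets in CT and 0 for T2DM against CT, where Ifi47 had an adjusted p of 0.039 and Gbp3 of 0.042. The block changed no other count of members. The deviations of same-numbered CT libraries correlated over genes with r = 0.00892, which cannot settle whether these libraries share more than a number. Over all genes, the block took the calls for the subsets in CT from 581 to 0, for T2DM against CT from 49 to 13 and for T2DM against T1DM from 97 to 62.

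Among single genes, 26 values turned in sign, none of them called. For the subset difference over the mouse groups, Iigp1 read 0.48 under quantile normalization, 0.039 without the T1DM libraries and 0.13 without the T2DM libraries, Gbp9 read -0.18 without the CT libraries, and Gbp5 (0.071) and Gbp7 (-0.11) turned without the T2DM libraries. With single libraries left out, this difference ran from -0.21 to 0.13 for Iigp1, from -0.22 to 0.071 for Gbp5 and from -0.11 to 0.43 for Gbp7. Iigp1 ran from -0.042 to 0.62 for the CT subsets, from -0.26 to 0.34 for T2DM against T1DM and from -0.52 to 0.078 for T2DM against CT. T1DM against CT ran from -0.16 to 0.32 for Gbp2, from -0.070 to 0.20 for Gbp9 and from -0.19 to 0.37 for Irgm1. The interaction of Ifi47 read -0.00678 with log2 of 1 plus the linear value and ran from -0.097 to 0.16 with single libraries left out.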

Other observations

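Relatives of the members outside the 10 genes gave further patterns, reported as values without a test of the single libraries. Gbp6 read 3.67 and 3.43 (CT), 2.05 (T1DM) and 1.35 (T2DM) in Ly6C-high MCs and 3.51 and 3.03 (CT), 3.19 (T1DM) and 1.47 (T2DM) in Ly6C-low MCs, so the T1DM library was below CT in the Ly6C-high subset and between the CT libraries in the Ly6C-low subset. Gm12250, an IRG gene, read 3.99 and 3.72 (CT), 3.91 (T1DM) and 1.86 (T2DM) in Ly6C-high MCs and 2.54 and 2.31 (CT), 2.56 (T1DM) and 1.51 (T2DM) in Ly6C-low MCs, so both T2DM libraries were the lowest. By contrast F830016B08Rik stayed between 3.20 and 3.72, and Irgq between 4.31 and 4.91, in all 8 libraries. These 4 genes were picked after their values were seen.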
